A study of Mus musculus with 12 samples.

Results

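The transcripts described here belong to 8 genes for signals that reach microglia, the resident macrophages of the brain, from the cells around them. They are the microglial growth factor genes *Csf1* and *Il34*, the genes *Cx3cl1*, *Cd200* and *Cd47* for ligands on the surface of neurons, and the transforming growth factor beta (TGF-beta) genes *Tgfb1*, *Tgfb2* and *Tgfb3*. They were taken by gene symbol from a pair of count tables with 24480 genes each, and all 8 were present in both tables.

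RNA-seq was performed on dorsolateral geniculate nuclei (dLGN), the visual relay nucleus of the thalamus, dissected at postnatal day 0 (P0) from thalamic mutants and control littermates, in 4 groups of 3 libraries. *Sox2* mutants had the genotype Sox2flox/flox;Ror-alphaCre, and their controls were Sox2flox/flox or Sox2flox/+ and carried no Cre. *Nr2f1* mutants had the genotype Nr2f1 flox/flox;Ror-alphaCre; the label of their controls names the Cre allele and also says no Cre, whereas the study's methods describe floxed littermates that lacked Cre. Each library pooled the dLGNs of 3 animals of a single genotype, so the spread between libraries is a spread between pools. The Cre was knocked into the *Rora* gene and acts once sensory thalamic cells have left the cell cycle, and a pooled dLGN also holds glia, vessels and any adhering meninges that were not sorted away.

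Microglia depend on the receptor CSF1R, which binds both CSF1 and IL34. Neurons display CX3CL1, CD200 and CD47, which bind CX3CR1, CD200R1 and SIRPA on microglia and are known to restrain them, CD47 as a signal against phagocytosis. TGF-beta ligands are secreted in a latent form that integrins release, and TGF-beta signaling helps to establish the mature microglial state. The comparisons below ask whether the transcripts of these ligands differed between mutants and controls in tissue where microglial transcripts were higher.

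Libraries held between 39293465 and 50095344 expected counts. Expression is given as library-scaled counts (CPM) after normalization by the trimmed mean of M values. The deleted genes were examined first. *Sox2*, which encodes an HMG-box transcription factor, was at 361, 363 and 382 CPM in the *Sox2* controls and at 116, 150 and 152 CPM in the *Sox2* mutants. *Nr2f1*, which encodes a nuclear receptor, was at 311, 370 and 380 CPM in the *Nr2f1* controls and at 105, 151 and 101 CPM in the *Nr2f1* mutants. The highest mutant value was below the lowest control value for each deleted gene, as the labels say. The log2 fold change was −1.40 ± 0.10 (SE, n = 3 against 3; edgeR quasi-likelihood F-test, false discovery rate, FDR, 4.83e-05) for *Sox2* and −1.57 ± 0.14 (FDR 3.48e-04) for *Nr2f1*. *Sox2* also fell in the *Nr2f1* mutants, by 0.55 on the log2 scale (FDR 0.00635). *Rora*, whose locus carries the Cre, fell by 1.96 on the log2 scale in the *Sox2* mutants (FDR 2.07e-05), and its log2 fold change in the *Nr2f1* mutants was −0.25 (FDR 0.204).

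The labelled tissue was checked against its markers. All 8 thalamic glutamatergic neuron markers and all 10 general neuronal markers passed the filter on low counts in both lines. The most abundant were the thalamic transcription factor gene *Tcf7l2*, at 763 ± 115 CPM (SD, n = 3) in *Sox2* controls and 861 ± 26.5 CPM in *Nr2f1* controls, and the neuronal tubulin gene *Tubb3*, at 2507 ± 238 and 2632 ± 40.3 CPM. The control library CTRL_3 of the *Sox2* line stood apart from the other controls of its group. Its summed neuronal markers were at 7158 CPM, against 8215 and 8376 CPM in CTRL_1 and CTRL_2, and its 8 meningeal fibroblast markers summed to 2516 CPM, against 1312 and 1262 CPM. Values without this library are given below for results that it moved.

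Microglial transcripts set the background against which the ligands are read. The summed CPM of 24 microglial markers was 285, 289 and 328 in the *Sox2* controls and 555, 638 and 649 in the *Sox2* mutants. In the *Nr2f1* line the sum was 223, 248 and 253 CPM in controls and 324, 275 and 349 CPM in mutants. Mutant libraries lay above their controls in both lines, and the mean rose to 204% of control in the *Sox2* line and stood at 131% in the *Nr2f1* line. In the *Sox2* mutants 22 of the 24 markers were called higher at an FDR below 0.01, where 3.9% of 15602 genes tested were called higher, and the median log2 fold change of the list was 1.08, against 0.00 over all genes tested. The complement gene *C1qb* rose by 1.34 and the purinergic receptor gene *P2ry12* by 1.45 on the log2 scale (FDR 1.53e-04 and 9.08e-05), whereas *Tmem119* (0.69, FDR 0.0409) and *Cd68* (0.96, FDR 0.0108) did not pass. In the *Nr2f1* mutants none of the 24 was called higher by edgeR, where 1.22% of 15600 genes tested were, although 23 of the 24 estimates were above 0, 14 had an unadjusted p below 0.05 and DESeq2 called 5; the list's median was 0.38, against 0.01 over all genes. Unadjusted p was below 0.05 for 24.6% of all genes in that line. Part of this list is among the genes the study itself listed as raised in these libraries, so its direction is not independent evidence. More microglia and more RNA per microglial cell cannot be told apart in bulk tissue.

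**Figure D1:**
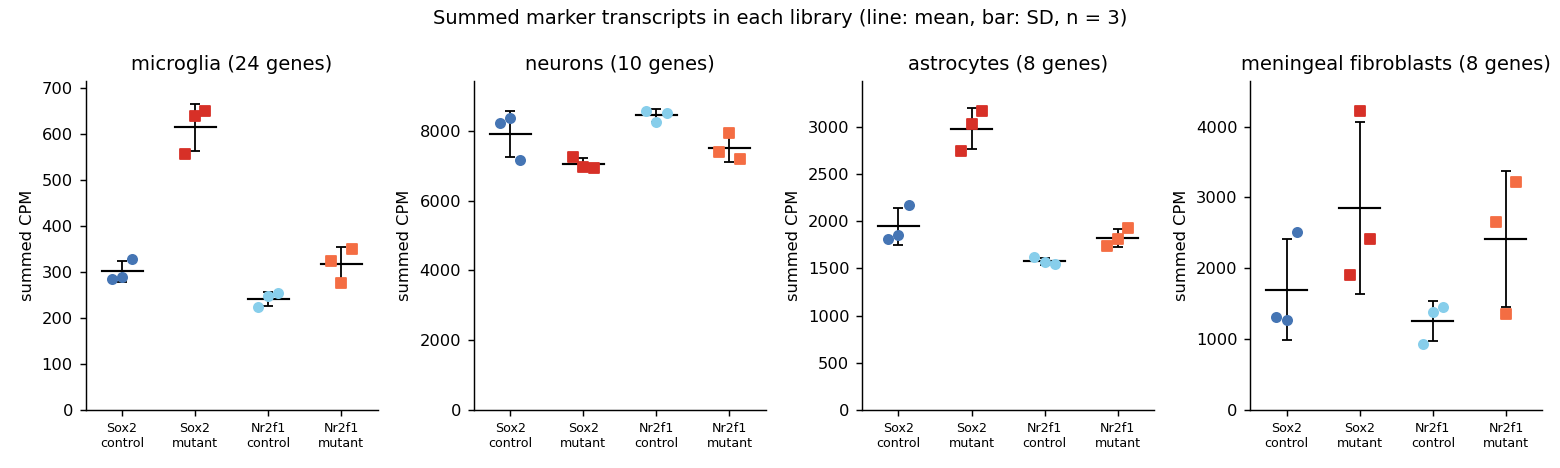
Summed CPM of 4 marker lists in each library, with the mean and SD of each group (n = 3). Microglial sums lie higher in mutants of both lines, 555 to 649 CPM in the *Sox2* mutants, while the meningeal fibroblast sum varies between libraries of 1 group, from 1907 to 4221 CPM in the *Sox2* mutants.

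Across the 8 ligand genes, 1 was called in each line, and it was *Cd47*, lower in both. The study already lists *Cd47* among the genes it found lowered in these *Sox2* mutants and changed in these *Nr2f1* mutants, so the call is from the same libraries and is not independent of that list. Of all genes tested, 8.08% were called in the *Sox2* mutants and 2.54% in the *Nr2f1* mutants, and for genes called lower it was 4.19% and 1.32%. No ligand was called higher in either line by edgeR; DESeq2 called 5 of 8 in the *Sox2* mutants, *Csf1* and *Tgfb1* higher and *Cd47*, *Cx3cl1* and *Tgfb2* lower, and *Cd47* alone in the *Nr2f1* mutants, where DESeq2 called 15.8% and 7.13% of all genes. Unadjusted p was below 0.05 for 6 of 8 ligands in the *Sox2* line, beside 35% of all genes, and for 5 of 8 in the *Nr2f1* line, beside 24.6%. Estimates lay above 0 for 4 ligands and below 0 for 4 in both lines, with medians of −0.06 for the *Sox2* mutants and 0.07 for the *Nr2f1* mutants. Control and mutant libraries did not overlap for 4 of 8 ligands in the *Sox2* line, beside 37.9% of all genes tested, and for 3 of 8 in the *Nr2f1* line, beside 28.6%.

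**Figure D2:**
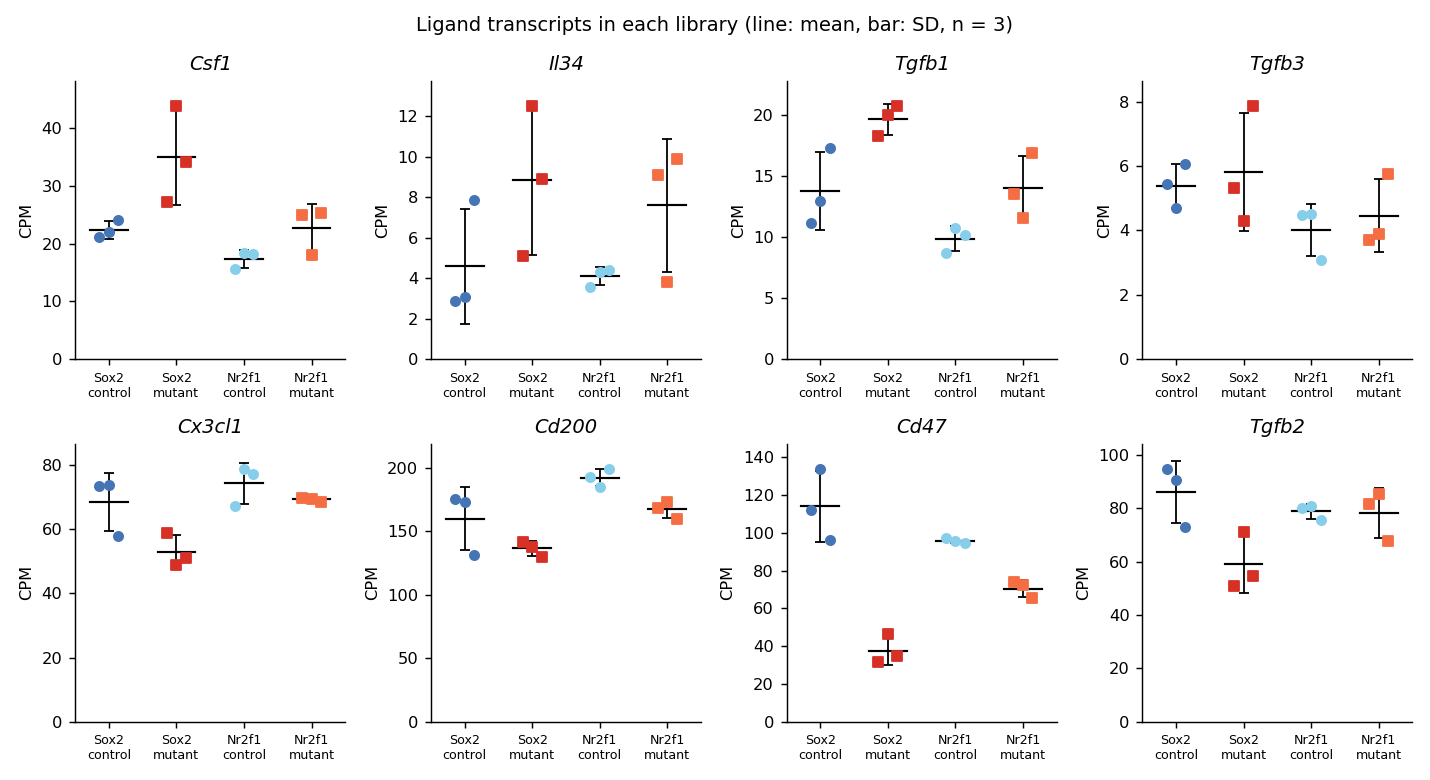
CPM of each ligand gene in each library, with the mean and SD of each group (n = 3). *Cd47* is the gene with separate groups in both lines that passed the test, at 96.0 to 134 CPM in *Sox2* controls against 31.6 to 46.7 CPM in *Sox2* mutants.

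*Csf1* (chr3:107741048-107760469, minus strand, GRCm38.p6), which encodes colony stimulating factor 1, was at 21.1, 22.0 and 24.2 CPM in the *Sox2* controls and at 27.2, 43.8 and 34.2 CPM in the *Sox2* mutants. The mutant libraries were all above the controls, MUT_3 by the widest margin. For *Csf1* the log2 fold change was 0.64 ± 0.15 (SE), with a 95% interval of 0.30 to 0.98, and did not pass the threshold (FDR 0.0168). It passed by DESeq2 (FDR 3.65e-04), with no filter on low counts (FDR 0.00899) and in 1 fit over all 12 libraries (FDR 0.00991). It also passed with a replicate block by the number in the column names (FDR 1.80e-04). In that fit only CTRL_1 with MUT_1 and CTRL_3 with MUT_3 inform the change, since CTRL_2 and MUT_4 have no partner. In the *Nr2f1* line *Csf1* was at 15.6, 18.4 and 18.2 CPM in controls and at 25.0, 18.1 and 25.3 CPM in mutants. MUT_A and MUT_C were above the controls, and MUT_B lay among them. The log2 fold change there was 0.39 ± 0.13 (SE, FDR 0.108). Relative to the microglial transcripts of the same library, *Csf1* was at 7.42%, 7.61% and 7.38% of the summed microglial CPM in the *Sox2* controls and at 4.90%, 6.87% and 5.27% in the mutants. Every mutant value was lower, at a mean of 76.0% of control, so *Csf1* differed by less than the microglial list did. In the *Nr2f1* line this ratio stood at 99.6% of control (exact permutation test, two-sided p = 1, n = 3 against 3). This ratio, like the other shares of a summed list given below, was chosen after the values were seen.

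*Il34* (chr8:110741829-110805949, minus strand), which encodes the other CSF1R ligand, was at 2.85, 3.05 and 7.88 CPM in the *Sox2* controls and at 5.09, 12.5 and 8.92 CPM in the *Sox2* mutants. In the *Nr2f1* line it was at 3.57, 4.32 and 4.41 CPM in controls and at 9.09, 3.81 and 9.87 CPM in mutants. The groups overlapped in both lines, since the control CTRL_3 was as high as the mutants and the mutant MUT_B was as low as the controls. The log2 fold changes were 0.95 ± 0.41 (SE, FDR 0.131) and 0.88 ± 0.30 (FDR 0.107). In the *Sox2* line *Il34* passed without CTRL_3 (1.60, FDR 0.00712). It also passed with a replicate block (0.74, FDR 0.00310), in which only the libraries that share a number inform the change. Antisense genes overlap *Il34*, and whether counting used strand is not given in the sources used here, so reads of the opposite strand cannot be told apart from its own.

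The libraries with high *Il34* were those with high meningeal fibroblast transcripts. The 8 markers of that list, of which *Igf2* and the collagen gene *Col3a1* were the most abundant, summed to 1312, 1262 and 2516 CPM in the *Sox2* controls and 1907, 4221 and 2408 CPM in the *Sox2* mutants. Among the *Nr2f1* libraries they summed to 932, 1376 and 1446 CPM in controls and 2653, 1357 and 3221 CPM in mutants. CTRL_3 and MUT_3 of the *Sox2* line and MUT_A and MUT_C of the *Nr2f1* line were the highest of their groups for these markers and for *Il34*, and MUT_3, MUT_A and MUT_C were also the highest of their lines for *Csf1*. No meningeal marker was called in either line by edgeR or DESeq2, although 4 of 8 in the *Sox2* line and 7 of 8 in the *Nr2f1* line had an unadjusted p below 0.05, and none was at 0 in any library. With the log2 sum of this list as a covariate, an alternative added after the values were seen, the log2 fold change of *Il34* was 0.11 (FDR 0.767) for the *Sox2* mutants and −0.10 (FDR 0.895) for the *Nr2f1* mutants. That of *Csf1* was 0.34 (FDR 0.108) and 0.02 (FDR 0.968). The covariate left *Cd47* at −1.66 (FDR 2.14e-04) and −0.38 (FDR 0.0584). In these fits 6.12% of genes were called in the *Sox2* line, with 1 of 8 ligands, and 0.526% in the *Nr2f1* line, with 0 of 8. The mean meningeal sum was itself 168% of control in the *Sox2* mutants and 193% in the *Nr2f1* mutants. The covariate thus overlapped with genotype, and these fits cannot separate them. The part of meningeal tissue in the *Il34* and *Csf1* values was not tested.

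**Figure D3:**
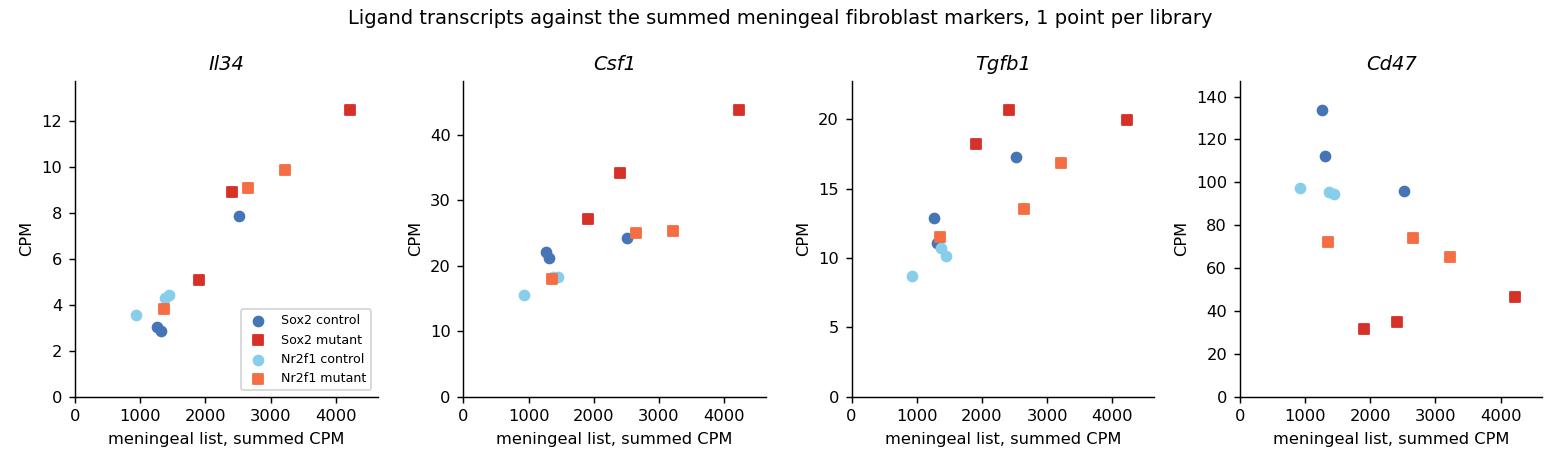
CPM of *Il34*, *Csf1*, *Tgfb1* and *Cd47* against the summed CPM of 8 meningeal fibroblast markers, 1 point per library, colored by group. *Il34* is lowest, at 2.85 CPM, where the sum is 1312 CPM and highest, at 12.5 CPM, where it is 4221 CPM, whereas *Cd47* separates by genotype in the *Sox2* line.

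Leaving out single libraries moved these calls. Without CTRL_3, 6 of 8 ligands were called in the *Sox2* line, beside 13.7% of all genes: *Il34* (1.60, FDR 0.00712) and *Tgfb1* (0.72, FDR 0.00232) higher and *Cd47*, *Cx3cl1*, *Cd200* and *Tgfb2* lower. Without MUT_1 *Csf1* was called with *Cd47* (0.81, FDR 0.00364), and without MUT_3 *Tgfb2* was. Without MUT_B, 3 of 8 were called in the *Nr2f1* line, beside 5.5% of all genes: *Csf1* (0.53, FDR 0.00670) and *Il34* (1.21, FDR 6.84e-04) higher and *Cd47* lower, and 7 of the 24 microglial markers were called. The 1261 genes called in the *Sox2* line became 554 without CTRL_1, 494 without CTRL_2, 2161 without CTRL_3 and 495 without MUT_4. The 396 genes called in the *Nr2f1* line became 144, 169 and 179 without CTRL_B, CTRL_D and CTRL_E, and 133, 868 and 226 without MUT_A, MUT_B and MUT_C. *Tgfb3* did not pass in either line with any single library left out, nor did *Cx3cl1*, *Cd200*, *Tgfb1* and *Tgfb2* in the *Nr2f1* line, where *Cd47* lost its call without CTRL_B, CTRL_D or CTRL_E (FDR 0.0134, 0.0114 and 0.01002).

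*Cd47* (chr16:49851328-49912503, plus strand), the phagocytosis-restraining ligand of SIRPA, was at 112, 134 and 96.0 CPM in the *Sox2* controls and at 31.6, 46.7 and 34.9 CPM in the *Sox2* mutants. The highest mutant library was at less than the lowest control by a wide gap, and CTRL_3, the control that stood apart, was the closest to the mutants. The mean fell from 114 ± 19.0 to 37.7 ± 7.91 CPM (SD, n = 3), to 33.1% of control. The log2 fold change was −1.60 ± 0.16 (SE), with a 95% interval of −1.94 to −1.25 (FDR 2.06e-04), and 57 of the 15602 genes tested had a lower estimate. Without CTRL_3 the log2 fold change was −1.69 (FDR 1.04e-04), and 24 of the 24 microglial markers were called higher. For the *Nr2f1* libraries *Cd47* was at 97.1, 95.6 and 94.7 CPM in controls and at 74.0, 72.2 and 65.3 CPM in mutants. The controls were close to each other and all mutants lay below them. Its log2 fold change was −0.44 ± 0.06 (SE), with a 95% interval of −0.57 to −0.31 (FDR 0.00213), and 615 of 15600 genes had a lower estimate. This smaller change lost the call without any single control (FDR 0.0134 without CTRL_B, 0.0114 without CTRL_D and 0.01002 without CTRL_E) and in 1 fit over all 12 libraries (FDR 0.0598), with the log2 fold change between −0.43 and −0.45 in those fits. The decrease was larger in the *Sox2* mutants: the difference between the log2 fold changes, tested as the interaction of line and genotype, was −1.14 ± 0.18 (SE), with a 95% interval of −1.54 to −0.75 (FDR 0.00304; 1.44% of 15989 genes tested were called for this difference). *Cd47* was the 1 ligand of 8 called for it, and the difference missed the threshold without MUT_4 of the *Sox2* line (−1.08, FDR 0.0139) or, in the *Nr2f1* line, without CTRL_B (FDR 0.0101), CTRL_D (FDR 0.0122), CTRL_E (FDR 0.0108) or MUT_A (FDR 0.0130).

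Neuronal markers were examined beside *Cd47*, since neurons express it strongly. The 10 neuronal markers summed to 89.0% of control in the *Sox2* mutants and 88.9% in the *Nr2f1* mutants. As a share of that sum, *Cd47* was at 1.37%, 1.60% and 1.34% in the *Sox2* controls and at 0.436%, 0.671% and 0.504% in the mutants. In *Nr2f1* mutants and their controls the share was 1.13%, 1.16% and 1.11% in controls and 1.00%, 0.909% and 0.908% in mutants. The groups stayed separate in both lines, with mutant means at 37.4% and 82.8% of control. The decrease of *Cd47* in the *Sox2* mutants was thus far larger than that of the summed neuronal markers, but not than that of every marker. In that line edgeR called 3 of the 10 lower, beside 4.19% of all genes, with *Nefm* at 47.1% and *Syt1* at 50.6% of control. Estimates lay above 0 for 2 of the 10. An exact permutation test gave a two-sided p of 0.1 for each, the smallest that 3 against 3 libraries allow. These shares too were chosen after the values were seen.

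The promoter of *Cd47* is shown because its transcript fell after deletion of either transcription factor, and that of *Csf1* for comparison. RefSeq promoters (GRCm38.p6) were at hand for 6 of the 8 ligand genes; *Il34* and *Tgfb3* had no entry. Each sequence is the 250 bases before the RefSeq transcript start of the first entry for the gene, 5′ to 3′ on the strand of the gene, at chr16:49855404-49855653 (plus strand) for *Cd47* and chr3:107760470-107760719 (minus strand) for *Csf1*, and capitals mark a match to a searched motif. The *Cd47* window lies inside the gene as given above, downstream of its outermost annotated start, and its end lies within the first exon of some annotated transcripts.
Cd47: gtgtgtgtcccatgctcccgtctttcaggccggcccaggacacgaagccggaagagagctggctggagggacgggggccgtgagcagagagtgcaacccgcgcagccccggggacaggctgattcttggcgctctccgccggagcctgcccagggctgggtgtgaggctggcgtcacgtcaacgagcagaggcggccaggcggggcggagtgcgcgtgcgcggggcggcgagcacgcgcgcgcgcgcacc
Csf1: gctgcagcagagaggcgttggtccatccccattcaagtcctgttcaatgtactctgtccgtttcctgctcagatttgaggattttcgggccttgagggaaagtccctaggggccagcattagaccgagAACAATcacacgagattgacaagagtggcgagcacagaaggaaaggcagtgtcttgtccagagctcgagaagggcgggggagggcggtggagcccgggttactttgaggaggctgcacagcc
The motifs were ATTGTT (read as AACAAT on the other strand) and CTTTGT (read as ACAAAG on the other strand), short forms of the sequence that SOX proteins bind, and AGGTCA (read as TGACCT on the other strand), the single site of many nuclear receptors. They were searched on both strands and chosen with the results known. Among 32841 promoter windows of the same length, 9.43% held ATTGTT, 16.5% held CTTTGT and 14% held AGGTCA. The *Cd47* window held none of the 3, the *Csf1* window held 1 match to ATTGTT, the *Tgfb2* window held 1 match to CTTTGT, and the *Tgfb1*, *Cx3cl1* and *Cd200* windows held none. These counts describe letters in short windows and say nothing of where either protein binds.

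*Cx3cl1* (chr8:94772180-94782427, plus strand), which encodes the membrane-bound chemokine fractalkine, was at 73.4, 74.0 and 58.1 CPM in the *Sox2* controls and at 59.0, 48.8 and 51.0 CPM in the *Sox2* mutants. The groups overlapped only through CTRL_3, which lay just below the mutant MUT_1. The log2 fold change was −0.37 ± 0.11 (SE, FDR 0.0395) and, without CTRL_3, −0.47 (FDR 0.00393), whereas with the meningeal covariate it was −0.16 (FDR 0.287). Across the *Nr2f1* libraries *Cx3cl1* was at 67.1, 78.8 and 77.2 CPM in controls and at 69.8, 69.6 and 68.6 CPM in mutants. The mutants lay inside the range of the controls, and the 95% interval of the log2 fold change ran from −0.25 to 0.05 (FDR 0.385).

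*Cd200* (chr16:45382111-45409060, minus strand), which encodes an immunoglobulin-family ligand of neurons, was at 175, 173 and 132 CPM in the *Sox2* controls and at 142, 138 and 130 CPM in the *Sox2* mutants. CTRL_3 was again among the mutants while the other controls were above them. Among the *Nr2f1* libraries it was at 192, 185 and 199 CPM in controls and at 168, 173 and 160 CPM in mutants, with no overlap. The log2 fold changes were −0.23 ± 0.10 (SE, FDR 0.149) and −0.20 ± 0.05 (FDR 0.0437), and the *Sox2* estimate was −0.34 (FDR 0.00395) without CTRL_3 and −0.07 (FDR 0.728) with the meningeal covariate. As a share of the summed neuronal markers, *Cd200* stood at 96.2% of control in the *Sox2* mutants and at 97.9% in the *Nr2f1* mutants, and *Cx3cl1* at 87.0% and 105%. The shares of *Cd200* overlapped between the groups of both lines, whereas those of *Cd47* did not.

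**Figure D4:**
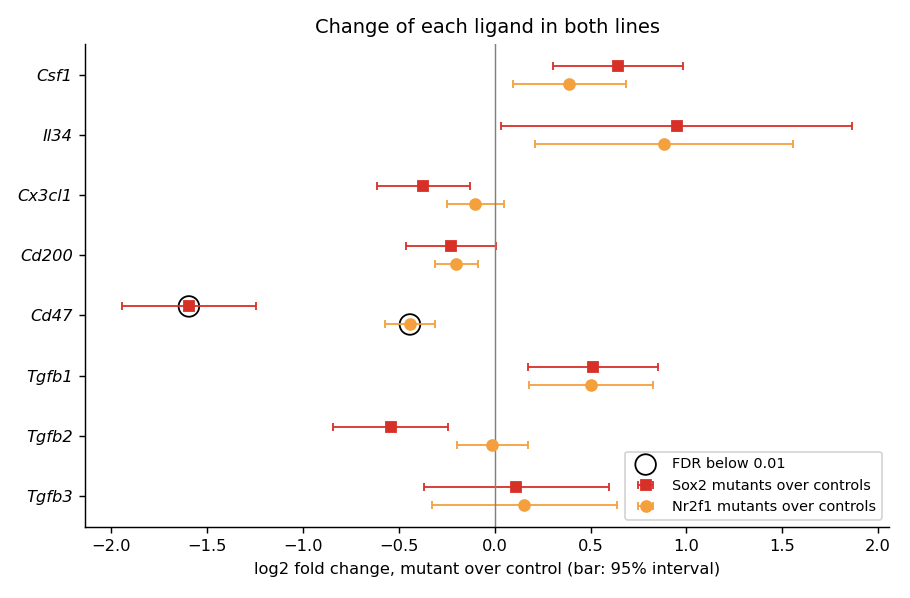
Log2 fold change of each ligand gene, mutant over control, in both lines, with the 95% interval of the edgeR fit; rings mark an FDR below 0.01. *Cd47* is ringed in both lines, at −1.60 and −0.44, and its intervals do not overlap.

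Of the TGF-beta ligand genes, *Tgfb1* (chr7:25687002-25705077, plus strand) was at 11.1, 12.9 and 17.3 CPM in the *Sox2* controls and at 18.2, 20.0 and 20.7 CPM in the *Sox2* mutants. For the *Nr2f1* libraries it was at 8.71, 10.7 and 10.2 CPM in controls and at 13.5, 11.6 and 16.8 CPM in mutants. Mutants lay above controls in both lines, by a narrow margin for CTRL_3 and for MUT_B. The log2 fold changes were 0.51 ± 0.15 (SE, FDR 0.0409) and 0.50 ± 0.14 (FDR 0.0668), and the *Sox2* estimate was 0.72 (FDR 0.00232) without CTRL_3. With the meningeal list as covariate the log2 fold changes in the *Sox2* and *Nr2f1* mutants were 0.31 (FDR 0.209) and 0.15 (FDR 0.751). Microglia are a source of *Tgfb1* in brain; relative to the summed microglial CPM it was at 3.90%, 4.47% and 5.28% in the *Sox2* controls and at 3.28%, 3.13% and 3.19% in the *Sox2* mutants. The mutant shares were all lower, at 70.4% of control, and the corresponding value in the *Nr2f1* line was 108%.

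*Tgfb2* (chr1:186622787-186709697, minus strand), the isoform gene that neurons and astroglia express, was at 94.7, 90.5 and 72.9 CPM in the *Sox2* controls and at 51.0, 71.3 and 54.8 CPM in the *Sox2* mutants. The groups did not overlap, but CTRL_3 and MUT_3 nearly met. For *Tgfb2* the log2 fold change was −0.54 ± 0.13 (SE, FDR 0.0210) and passed the threshold without CTRL_3 (−0.64, FDR 0.00591) or without MUT_3 (−0.70, FDR 0.00516). With all libraries of the line it also passed by DESeq2 (FDR 7.77e-04) and in 1 fit over all 12 libraries (FDR 0.00728). It passed with a replicate block as well (FDR 0.00470), a fit in which CTRL_2 and MUT_4 do not inform the change. In *Nr2f1* mutants and their controls *Tgfb2* was at 80.1, 80.8 and 75.5 CPM in controls and at 81.5, 85.3 and 67.6 CPM in mutants, with controls inside the range of the mutants. The log2 fold change was −0.01, with a 95% interval of −0.20 to 0.17 (FDR 0.942). The difference between the lines was −0.52 ± 0.18 (SE), with a 95% interval of −0.90 to −0.14, and was not called (FDR 0.139). *Tgfb3* (chr12:86056743-86079041, minus strand) was the least abundant of the TGF-beta ligand genes, between 3.07 and 7.86 CPM in all 12 libraries, with overlapping groups and FDRs of 0.746 and 0.713. Antisense genes overlap *Tgfb2*, and the protein-coding gene *Ttll5* overlaps *Tgfb3* on the opposite strand, which leaves the same doubt about strand as for *Il34*. The same doubt holds for *Csf1r*, *Cx3cr1*, *Nr2f1* and *Rora*, which genes on the opposite strand also overlap.

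For the remaining ligands the difference between the mutants was 0.26 for *Csf1* (FDR 0.660), 0.07 for *Il34* (FDR 0.976), −0.26 for *Cx3cl1* (FDR 0.355), −0.02 for *Cd200* (FDR 0.962), 0.02 for *Tgfb1* (FDR 0.987) and −0.04 for *Tgfb3* (FDR 0.978). The interval for *Il34*, from −1.21 to 1.35, was the widest of the 8, so even a large difference was not detectable. That for *Cd200*, from −0.28 to 0.24, was the narrowest.

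Levels in control dLGN were compared per kb of transcript. *Cd200* had the highest level, at 68.1 ± 10.4 CPM per kb (SD, n = 3) in *Sox2* controls and 81.9 ± 2.97 CPM per kb in *Nr2f1* controls. *Cd47* (21.7 ± 3.62 and 18.2 ± 0.233 CPM per kb), *Cx3cl1* (20.7 ± 2.72 and 22.4 ± 1.91 CPM per kb) and *Tgfb2* (16.8 ± 2.27 and 15.4 ± 0.563 CPM per kb) followed, and in the *Sox2* controls these neighbors overlapped in their spread. *Cd47* and *Cx3cl1* exchanged places between the control groups. *Csf1* (7.34 ± 0.509 and 5.68 ± 0.516 CPM per kb) and *Tgfb1* (6.33 ± 1.47 and 4.53 ± 0.472 CPM per kb) formed the next pair, and their order reversed when the longest transcript of *Csf1* was used, which put it at 5.38 and 4.16 CPM per kb. *Il34* (2.62 ± 1.62 and 2.34 ± 0.264 CPM per kb) and *Tgfb3* (1.59 ± 0.202 and 1.19 ± 0.242 CPM per kb) were lowest, and without CTRL_3 *Il34* was at 1.68 CPM per kb in the *Sox2* controls. Transcripts of the ligands that restrain microglia were thus more abundant per length in these controls than those of the CSF1R ligands.

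**Figure D5:**
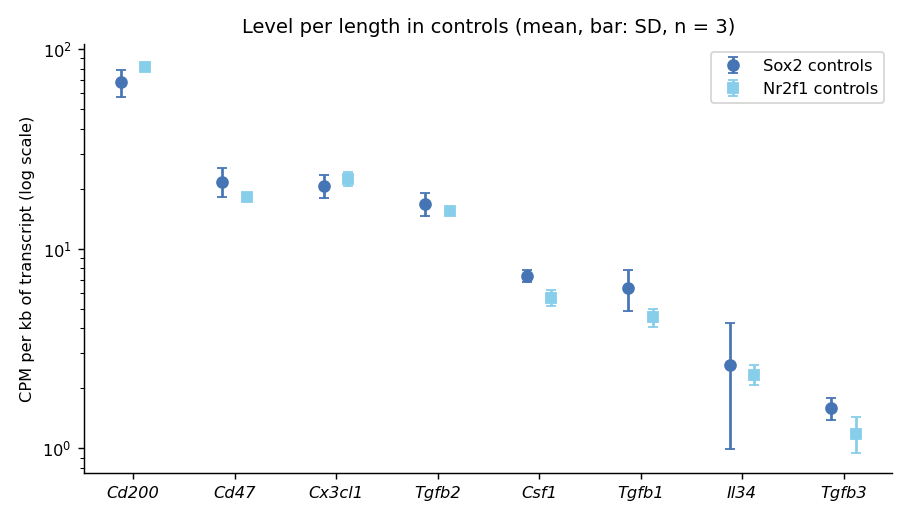
Level of each ligand gene in the control libraries of both lines, as CPM per kb of transcript on a log axis, with mean and SD (n = 3). *Cd200* is highest, at 68.1 and 81.9 CPM per kb, and *Tgfb3* is lowest.

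Of 6 receptor genes tested in the *Sox2* line, edgeR called 3 higher, beside 3.9% of all genes, and none lower. *Csf1r* and *Cx3cr1* are also on the microglial list, so these are not separate results. *Csf1r*, the receptor of both growth factors, was at 37.4, 37.0 and 42.7 CPM in the *Sox2* controls and at 72.7, 89.8 and 85.9 CPM in the *Sox2* mutants. *Cx3cr1*, the fractalkine receptor, was at 25.2, 23.0 and 25.9 CPM in controls and at 52.6, 50.9 and 57.9 CPM in mutants. Both more than doubled, with no overlap, with log2 fold changes of 1.08 ± 0.10 (SE, FDR 1.24e-04) and 1.12 ± 0.08 (FDR 4.83e-05). *Sirpa*, the CD47 receptor, which neurons also express, was the most abundant of the list, at 129, 126 and 120 CPM in controls and 161, 152 and 161 CPM in mutants. It rose by 0.34 ± 0.06 on the log2 scale (SE, FDR 0.00559), so in the *Sox2* mutants the ligand gene fell while the receptor gene rose. Of all genes tested in the *Nr2f1* line, edgeR called 2.54%, DESeq2 called 7.13% and 24.6% had an unadjusted p below 0.05. Between *Nr2f1* mutants and controls 0 of 5 receptor genes tested were called by edgeR and 4 had an unadjusted p below 0.05. DESeq2 called *Csf1r* and *Cx3cr1* higher there. *Cx3cr1* was at 18.2, 17.8 and 18.4 CPM in those controls and at 23.5, 23.1 and 27.3 CPM in mutants, with a log2 fold change of 0.44 ± 0.08 (SE, FDR 0.0130). The values did not overlap, yet the increase in the *Sox2* mutants exceeded it by 0.69 ± 0.12 on the log2 scale (SE, FDR 0.00402). *Cd200r1* was near the detection limit, with at most 27 expected counts in a library, and was not tested in the *Nr2f1* line. The TGF-beta receptor genes *Tgfbr1* and *Tgfbr2* were not called in either line by edgeR or DESeq2.

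Among 6 other binding partners, the receptor-type phosphatase gene *Ptprz1*, whose product binds IL34, was the most abundant and rose in the *Sox2* mutants, from 557 ± 17.3 to 739 ± 72.2 CPM (SD, n = 3), by 0.41 on the log2 scale (FDR 0.00849). The sheddase genes *Adam10* and *Adam17*, whose products cleave fractalkine, and the thrombospondin genes *Thbs1* and *Thbs2*, whose products bind CD47, were not called in either line by edgeR, whereas DESeq2 called *Adam17* higher in the *Sox2* mutants (edgeR log2 fold change 0.47, FDR 0.0195). The call of *Ptprz1* was 1 of 6 in a line where edgeR called 8.08% of all genes. Between *Nr2f1* mutants and controls 0 of 6 were called by edgeR or DESeq2, beside 2.54% and 7.13% of all genes. An unadjusted p below 0.05 was found for 1 of them, beside 24.6% of all genes. Of 10 other signals to microglia, *Ccl2*, *Cxcl10*, *Il4* and *Il10* were too low to be tested, as was *Cd22* in the *Nr2f1* line. *Cd24a*, which encodes a surface glycoprotein of immature neurons that binds Siglec receptors, was at 159, 161 and 130 CPM in the *Nr2f1* controls and at 228, 210 and 240 CPM in the *Nr2f1* mutants. All mutants were above all controls, and the log2 fold change was 0.59 ± 0.08 (SE, FDR 0.00356). In the *Sox2* line it was 0.63 ± 0.14 (FDR 0.0140). Of 6 genes of the list tested there, edgeR called 0, 4 had an unadjusted p below 0.05 and DESeq2 called 2. The shares of all genes in that line were 8.08%, 35% and 15.8%.

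Of 13 TGF-beta storage and activation genes tested, edgeR called 1 in the *Sox2* line, beside 8.08% of all genes, and none in the *Nr2f1* line. Unadjusted p was below 0.05 for 8 of 13 in the *Sox2* line, beside 35% of all genes, and for 5 of 13 in the *Nr2f1* line, where DESeq2 called 2. In the *Sox2* line DESeq2 called *Itgb5* and *Itgb8*. The gene called by edgeR was *Itgb8*, for the integrin subunit that releases TGF-beta from its latent complex, at 17.9, 17.7 and 15.4 CPM in *Sox2* controls and 22.9, 24.6 and 25.8 CPM in *Sox2* mutants. It rose by 0.52 ± 0.09 on the log2 scale (SE, FDR 0.00519). The integrin gene *Itgb1* was the most abundant of the list, at 161 ± 18.6 and 202 ± 31.1 CPM (SD, n = 3), and was not called. Of 13 receptor and Smad genes, edgeR called 1 in the *Sox2* line. *Smad2*, for a signal transducer of the pathway, was at 150, 144 and 118 CPM in *Sox2* controls and 99.4, 105 and 92.1 CPM in *Sox2* mutants. It fell by 0.47 ± 0.09 on the log2 scale (SE, FDR 0.00851), and edgeR called no other gene of the list in that line, whereas DESeq2 called *Smad2*, *Smad3* and *Acvrl1* and 8 of 13 had an unadjusted p below 0.05. The most abundant, *Ski*, an inhibitor of Smads, had log2 fold changes of 0.03 and −0.05. Between *Nr2f1* mutants and controls 0 of 13 were called by edgeR, 7 had an unadjusted p below 0.05 and DESeq2 called 3. The shares of all genes in that line were 2.54% called by edgeR, 24.6% with an unadjusted p below 0.05 and 7.13% called by DESeq2.

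Of 8 genes known to respond to TGF-beta, none was called by edgeR in either line; 3 in the *Sox2* mutants and 4 in the *Nr2f1* mutants had an unadjusted p below 0.05, beside 35% and 24.6% of all genes, and DESeq2 called 1 and 2. The most abundant gene of the list, *Skil*, had log2 fold changes of −0.21 and −0.03. Median log2 fold changes of the list were −0.19 and −0.09, against 0.00 and 0.01 over all genes.

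Transcripts of other cell types differed as well. Beside 4.19% and 1.32% of all genes called lower by edgeR, neuronal markers gave 3 of 10 called lower in the *Sox2* line (*Nefm*, *Syt1* and *Elavl4*) and 1 (*Nefm*) in the *Nr2f1* line. The neurofilament gene *Nefm* fell by 1.09 on the log2 scale in each (FDR 1.81e-04 and 0.00411). Of the thalamic neuron markers, edgeR called *Lef1* lower in both lines (−0.91, FDR 1.91e-04, and −0.70, FDR 0.00853). It called *Slc17a6* and *Ntng1* lower and *Gbx2* higher in the *Sox2* line, and *Lhx2* higher in the *Nr2f1* line. In the *Nr2f1* line 7 of 8 had an unadjusted p below 0.05, beside 24.6% of all genes. DESeq2 called 6 there, 4 of them higher, beside 7.13% of all genes. These included *Ntng1* (edgeR log2 fold change −0.48) and *Gbx2* (0.60). The thalamic list summed to 85.7% of control in the *Sox2* mutants (79.8% without CTRL_3, whose sum was like those of the mutants) and 101% in the *Nr2f1* mutants. Beside 3.9% and 1.22% of all genes called higher, astrocyte markers were called higher for 5 of 8 genes in the *Sox2* line, where they summed to 153% of control and *Gfap* rose by 1.28 on the log2 scale (FDR 1.08e-04), and for *Aqp4* in the *Nr2f1* line (116% of control). Of the oligodendrocyte lineage list *Mbp* rose in both lines, by 0.80 and 0.87 on the log2 scale (FDR 0.00787 and 1.85e-04). Since astrocytes can express *Csf1* and *Tgfb2*, and neurons *Il34*, the ligand values sum over cell types whose own transcripts differed, and the part of each was not tested.

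Cells of vessels, borders and blood were called for no gene by edgeR in either line. The 8 border macrophage markers, of which *Mrc1* was the most abundant, summed to 49.2, 45.8 and 80.7 CPM in *Sox2* controls and 59.7, 120 and 87.7 CPM in *Sox2* mutants, and to 40.5, 51.3 and 46.9 CPM in *Nr2f1* controls and 99.0, 49.6 and 105 CPM in *Nr2f1* mutants (182.5% of control), high in the libraries in which the meningeal list was high. Endothelial markers, led by *Cldn5*, summed to 131% and 137% of control, pericyte markers, led by *Vtn* and *Rgs5*, to 139% and 128%, and red blood cell markers, led by *Hba-a1*, to 105% and 115%. Without CTRL_3 the *Sox2* values were 188% for border macrophages, against 152% with it, 152.5% for endothelial cells, 163% for pericytes and 121% for red blood cells. Choroid plexus markers, led by *Ttr*, summed to 116, 39.6 and 6.32 CPM in *Sox2* controls and 139, 16.2 and 97.4 CPM in *Sox2* mutants. They varied more within than between the groups, at 156% of control with all libraries, 366% without CTRL_1 and 105% without MUT_1, and stood at 152% in the *Nr2f1* line. Unadjusted p was below 0.05 for 1 of 7 and 4 of 8 border macrophage, 6 of 8 and 8 of 8 endothelial, 5 of 6 and 2 of 6 pericyte, 1 of 4 and 1 of 4 choroid plexus, and 0 of 5 and 1 of 5 red blood cell genes tested in the *Sox2* and *Nr2f1* lines, beside 35% and 24.6% of all genes. DESeq2 called 4 endothelial genes, 1 border macrophage gene and 1 choroid plexus gene in the *Nr2f1* line and the pericyte gene *Anpep* in both lines. Of the other leukocyte list the neutrophil genes *S100a8* and *S100a9* alone were tested and neither had an unadjusted p below 0.05; the list summed to 17.8 CPM in CTRL_3 and to 8.50 CPM in MUT_4 of the *Sox2* line, and to at most 1.89 CPM in every other library, while the T cell gene *Cd3e* and the B cell gene *Ms4a1* were at or near 0. Transcripts of these T cell and B cell markers were therefore close to absent where microglial transcripts were higher.

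The profile of *Cd47* over the 12 libraries was compared with those of 15396 other genes by the root mean square difference of log2 CPM, each gene centered on the controls of its line. The closest were *Tmem163*, *Adgrl2* and *Galnt14*, at distances of 0.147, 0.165 and 0.174, against a median of 0.863 over all genes. *Tmem163* encodes a zinc transporter, *Adgrl2* an adhesion receptor of the latrophilin family and *Galnt14* an enzyme of O-glycosylation. Their log2 fold changes were −1.49, −1.52 and −1.56 in the *Sox2* line (FDR 1.22e-05, 8.27e-06 and 2.07e-05) and −0.44, −0.58 and −0.23 in the *Nr2f1* line (FDR 0.0564, 2.51e-04 and 0.225). A less negative estimate in the *Nr2f1* line than in the *Sox2* line was common to these profiles, as the measure of likeness requires. Of these genes, *Adgrl2* alone was called in the *Nr2f1* line.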

How the data were processed

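RNA-seq libraries were made from dLGNs at P0, each a pool of 3 animals, in 4 groups of 3 libraries. The authors mapped paired reads with STAR (version not given) to the mouse RefSeq transcriptome (mm10) and counted genes with RSEM; the deposited tables hold expected counts for 24480 genes, of which 7.77% of values are not whole. Counts were rounded, and columns were assigned to groups by their names. Genes were filtered with filterByExpr (minimum count 10, total 15), normalized by TMM and tested with edgeR 4.0.16 (limma 3.58.1, R 4.3.3) quasi-likelihood F-tests, mutants against controls of the same line, at a Benjamini-Hochberg FDR below 0.01 over all genes tested; the difference between lines was the interaction in 1 fit of 12 libraries. An exact permutation test of 3 against 3 cannot give a two-sided p below 0.1. The prior count of log2 CPM was 2. Python 3.11.15, numpy 2.4.6, pandas 2.3.3 and matplotlib 3.10.9 made tables and figures. Libraries held 39293465 to 50095344 expected counts. The fits were tested on simulated data.

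Members and lists were chosen with earlier results of these data known. Named are all members, called and most abundant genes of the pathway lists (microglial receptors, other binding partners, other signals to microglia, TGF-beta storage and activation, TGF-beta receptors and Smads, TGF-beta responsive genes), the most abundant genes and some with the smallest p of the cell type lists, and the closest profiles to called members; the results of 2 genes of these lists are not reported here. Levels were divided by the median length of GENCODE transcripts that match RefSeq. Alternatives were DESeq2 1.42.0, upper quartile normalization, no filter, at least 10 counts in every library, 1 fit over 12 libraries, FDR below 0.05, a replicate block, the longest transcript and each library left out. The meningeal covariate, the shares of a ligand in a summed list, and leaving out libraries for list sums and levels per length were chosen after seeing the data.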

Additional observations from a re-analysis of the deposited data

Results flagged for a closer look

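The log2 fold changes of some genes reported here differed between the lines by the interaction test of edgeR (*Sox2* line minus *Nr2f1* line). The difference was −1.14 for *Cd47* (FDR 0.00304). Among microglial genes it was 0.69 for *Cx3cr1* (FDR 0.00402), 1.48 for *P2ry12* (FDR 4.19e-04) and 1.32 for *Trem2* (FDR 0.00264). Among neuronal genes it was −0.52 for *Elavl4* (FDR 0.00851) and −0.91 for *Slc17a6* (FDR 0.00467). For *Rora*, whose locus carries the Cre, it was −1.70 (FDR 1.18e-04). For the deleted genes, each deleted in 1 line only, it was −0.84 for *Sox2* (FDR 0.00603) and 1.19 for *Nr2f1* (FDR 0.00742). The cause of the differences outside the deleted genes was not tested.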

How the results depend on the processing

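*Cd47* was called lower in the *Sox2* line under all 14 alternatives, with log2 fold changes from −1.78 to −1.43 (FDR 6.41e-24 to 0.00232). In the *Nr2f1* line it was called under 8 of 13, from −0.48 to −0.38, with the FDR at most 0.0598, and the difference under 12 of 17, from −1.32 to −1.01, with the FDR at most 0.0139. With DESeq2 2468 genes were called in the *Sox2* line, 1112 in the *Nr2f1* line and 544 for the difference, with 5 ligands in the *Sox2* line and 5 microglial markers in the *Nr2f1* line. At an FDR below 0.05 the counts were 3095, 1154 and 538 genes, 5 and 2 ligands in the *Sox2* and *Nr2f1* lines, and 5 microglial markers in the *Nr2f1* line. In 1 fit over 12 libraries 2075 of 15989 genes tested and 3 ligands were called in the *Sox2* line. In the *Nr2f1* line that fit called 0 ligands and 2 microglial markers. With no filter 1525 of 19418 genes and 2 ligands were called in the *Sox2* line, and 2 microglial markers in the *Nr2f1* line. Counts over all genes of the *Nr2f1* line are not given here for the fit over 12 libraries or the fit with no filter. With the meningeal covariate, added after seeing the data, 82 genes and 0 ligands were called in the *Nr2f1* line. Leaving out each library in turn gave 494 to 2161 genes, 1 to 6 ligands and 15 to 24 microglial markers in the *Sox2* line, 133 to 868 genes, 0 to 3 ligands and 0 to 7 microglial markers in the *Nr2f1* line, and 133 to 308 genes for the difference. With the number in the column names as a replicate block 4 ligands and 1611 genes were called in the *Sox2* line. CTRL_2 and MUT_4 have no partner in that fit, so its estimates rest on 2 pairs. The pairs share only a number, and deviations from the group means correlated at 0.177 and 0.157, while pairs with different numbers reached 0.152. No paired analysis was possible in the *Nr2f1* line because its columns share only 1 letter between groups. Whether *Csf1* lay above *Tgfb1* per length depended on the transcript used. The cause of these changes was not tested.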
